A study of Homo sapiens with 24 samples.

Results

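The interferon-stimulated genes examined here are 41 listed genes of the interferon response, named from what is known of the pathway. The list was chosen with earlier results of these data known. For each gene, the probe set that names only that gene was used, and where several did, the one with the highest mean over the 24 arrays. This gave values for 40 of the 41 genes, out of 22395 named genes in all. STAT2, a subunit of the interferon-activated transcription factor, is named by no probe set of its own and was not analysed here.

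Gene expression was measured on Affymetrix Human Gene ST arrays in 2 human breast cancer cell lines, T47D, a luminal and oestrogen-receptor-positive line, and SUM159, a triple-negative line with mesenchymal features. Cells received 5 µM of the small molecule ID8 or its vehicle DMSO for 72 hours. They were then stained with Aldefluor, a reagent that fluoresces in cells with high aldehyde dehydrogenase activity, and sorted into Aldefluor+ and Aldefluor- fractions. Each line gave 3 separate experiments, numbered 5, 6 and 7 in T47D and 2, 3 and 4 in SUM159. Every experiment gave 1 array to each of its line's 4 groups, which were ID8 Aldefluor+, ID8 Aldefluor-, DMSO Aldefluor+ and DMSO Aldefluor- cells. This makes 8 groups of 3 arrays. No group was given interferon or a virus, and both lines are established cell lines that stand for 1 tumour each. Values are log2 signals that the authors had adjusted for batch, and array values of 1 group are listed below in the order of the experiments.

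Interferons are secreted proteins that bind receptors on the cell surface and activate Janus kinases. These phosphorylate STAT proteins, which enter the nucleus with IRF9 and bind a promoter sequence called the interferon-stimulated response element (ISRE). The genes switched on in this way encode sensors of viral RNA, enzymes that block viral replication, the ubiquitin-like protein ISG15 with its conjugation enzymes, and parts of the machinery that presents antigens. In breast cancer cells the same set can also be expressed without infection, through signals from nucleic acids within the cell or through steady STAT activity.

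Promoter sequences were available for 33 of the 41 genes, as RefSeq windows on GRCh38.p14 that run from 250 bases before to 50 bases after an annotated start site. For 10 of the 33 the table gives several start sites, and the window with the lowest coordinate was used, which is not always the outermost start of the gene. The core of the ISRE, which is GAAA followed by any 2 bases and GAAA again, was searched on both strands, and on the other strand it reads TTTC, any 2 bases and TTTC. It was found in 20 of the 33 windows, 60.6%, against 997 of 27305 promoters, 3.65%. The letters TTCNNNGAA, the palindrome of the gamma-activated sequence, were found in 9 of the 33 windows, 27.3%, against 2168 of 27305 promoters, 7.94%. In 3 genes the ISRE-type and the palindromic match share bases. With every window of a gene searched, a choice made after seeing the data, the ISRE core was found in 22 of the 33 genes, against 1195 of 27305, 4.38%, and the palindrome in 10, against 2560, 9.38%. These matches describe the sequence only.

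The promoters of the 4 genes that passed the test in some comparison below are shown as the 250 bases before the start site used, with ISRE-type matches in capitals. They lie at chr3:122564301-122564550 on the minus strand for PARP9, chr7:93117980-93118229 on the minus strand for SAMD9, chr4:88378602-88378851 on the plus strand for HERC6 and chr1:78620198-78620447 on the plus strand for IFI44L. Each is written 5′ to 3′ on the strand of its gene.
PARP9: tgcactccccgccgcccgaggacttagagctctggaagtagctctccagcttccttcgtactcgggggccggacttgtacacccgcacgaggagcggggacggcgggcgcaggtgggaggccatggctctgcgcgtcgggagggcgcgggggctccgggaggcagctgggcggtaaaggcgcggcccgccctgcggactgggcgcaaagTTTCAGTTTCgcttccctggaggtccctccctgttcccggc
SAMD9: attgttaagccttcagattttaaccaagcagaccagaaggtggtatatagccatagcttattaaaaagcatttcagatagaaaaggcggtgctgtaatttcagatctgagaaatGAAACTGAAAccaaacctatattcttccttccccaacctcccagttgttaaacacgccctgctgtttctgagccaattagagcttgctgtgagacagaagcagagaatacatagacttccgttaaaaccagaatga
HERC6: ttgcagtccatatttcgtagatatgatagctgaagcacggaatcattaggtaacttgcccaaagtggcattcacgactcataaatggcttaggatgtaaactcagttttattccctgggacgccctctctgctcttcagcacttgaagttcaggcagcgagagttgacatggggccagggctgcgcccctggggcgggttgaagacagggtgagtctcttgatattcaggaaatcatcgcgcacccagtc
IFI44L: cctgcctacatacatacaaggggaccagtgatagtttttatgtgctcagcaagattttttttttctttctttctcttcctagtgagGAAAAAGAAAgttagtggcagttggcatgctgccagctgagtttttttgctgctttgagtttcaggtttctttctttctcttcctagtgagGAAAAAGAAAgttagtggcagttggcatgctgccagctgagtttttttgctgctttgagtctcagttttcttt
PARP9 and SAMD9 hold 1 match each, IFI44L holds 2 in a repeated stretch, and HERC6 holds none in its window. PARP9 has a further start site 484 bases upstream of the one used, so the stretch shown lies within the annotated gene, and the window of that other site holds 0 ISRE-type matches. The other 3 genes have 1 window each.

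The start sites used for PARP9 and DTX3L lie 38 bases apart on chromosome 3 and are read in opposite directions, so that these windows overlap by 137 bases and share a single ISRE-type match at chr3:122564332-122564341. The matches of the 6 genes that separated all ID8 arrays from all DMSO arrays of T47D are shown next, each with 10 bases on either side and the match in capitals. Where a gene had several, the one nearest the start site used is given: chr10:89414564-89414573 for IFIT5, chr21:41420569-41420578 for MX1, chr2:162318696-162318705 for IFIH1 and chr4:168318796-168318805 for DDX60.
PARP9: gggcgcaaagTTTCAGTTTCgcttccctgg
DTX3L: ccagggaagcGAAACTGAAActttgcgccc
IFIT5: atttcttaagTTTCAGTTTCtgagcgctcg
MX1: gagcagaaatGAAACCGAAActgaattgtc
IFIH1: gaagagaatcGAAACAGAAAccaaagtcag
DDX60: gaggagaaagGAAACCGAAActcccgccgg
PARP9 and DTX3L show the same bases read from opposite strands, and the IFIT5 match has those 10 letters too.

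Marker genes followed the labels. All 6 listed markers of SUM159, among them the matrix protein FN1, were higher in SUM159, and all 9 listed markers of T47D, among them the luminal factor GATA3, were higher in T47D. Of the 11 measured leukocyte markers, 10 had a mean log2 value below 2, which is a dim signal on these arrays. The exception, the macrophage protein CD68, had a mean of 3.56. The mean level of the 11 leukocyte markers on an array lay between 1.29 and 1.44 with ID8 in T47D, and between 1.22 and 1.43 with DMSO. All 5 measured endothelial and fibroblast markers had means below 2. Of the 40 interferon-stimulated genes, 25 had a mean of at least 2 and 15 a lower one, and 49% of all genes lay below 2. One array, from Aldefluor+ cells of SUM159 with DMSO in experiment 4, had the narrowest spread of values of the 24, and results were also computed without it.

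In T47D, most of the interferon-stimulated genes read higher with ID8 than with DMSO. Averaged over both fractions, 32 of the 40 genes had a difference above 0, 80% of them against 48.4% of all genes. Their median log2 difference was 0.26, against -0.01 over all genes. At an unadjusted p under 0.05, 18 genes were higher, 45% of the 40 against a background of 5.41% of all genes, and 0 were lower, against 5.44%. Since the list was chosen with earlier results known, these shares describe it and are not a test. After Benjamini-Hochberg adjustment over all 22395 genes, limma called 1 of the 40, PARP9, where 0.505% of all genes were called. These are sorted bulk cells, so more cells that express a gene and more RNA per cell cannot be told apart.

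The mean level of the 40 genes separated the T47D treatments on every array. It was 3.15, 3.10 and 3.20 with ID8 in Aldefluor+ cells and 3.16, 3.09 and 3.17 with ID8 in Aldefluor- cells. With DMSO it was 2.88, 2.96 and 2.88 in Aldefluor+ cells and 2.93, 2.90 and 2.88 in Aldefluor- cells. The lowest ID8 array thus lay above the highest DMSO array, and the fractions of 1 treatment lay close together. The same order held within experiments. In experiments 5, 6 and 7, the median difference of the 40 genes was 0.31, 0.14 and 0.30, and 28, 28 and 33 genes lay above 0. In all 3 experiments, 22 genes lay above 0, against 15.6% of all genes, and 5 lay below 0, against 16.7%. Fewer T47D cells had been collected with ID8, 55000 to 77000 per sample, than with DMSO, 83000 to 107000, and the part of this in the result was not tested.

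**Figure D1:**
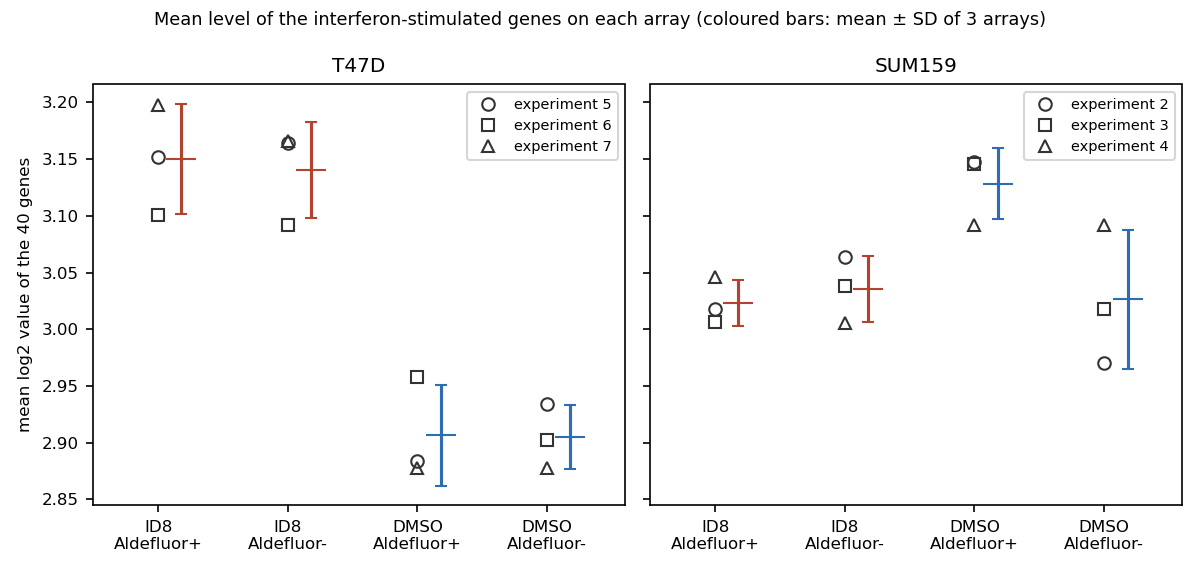
Mean log2 value of the 40 interferon-stimulated genes on each of the 24 arrays, by line, treatment and Aldefluor fraction. Open symbols are arrays, with the shape giving the experiment, and the bars beside them give the mean ± SD of 3 arrays. In T47D all 6 ID8 arrays lie at 3.09 or above and all 6 DMSO arrays at 2.96 or below, while in SUM159 the treatments overlap.

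Both fractions of T47D gave this picture when tested apart. In Aldefluor+ cells the median difference between ID8 and DMSO was 0.24, with 32 genes above 0, against 48.2% of all genes, and 14 genes were higher at an unadjusted p under 0.05, against 5.31%. In Aldefluor- cells the median was 0.28, with 31 genes above 0, against 49.9%, and 12 genes were higher at that level, against 3.4%. The pair HERC6 and TRIM22 was lower there, against 3.21% of all genes. Between them the fractions had 29 genes above 0 in both, where 26.9% of all genes were, 6 below 0 in both and 5 with opposite signs. With 3 arrays a group, limma called 0 of the 40 genes in Aldefluor+ cells, where it called 0.375% of all genes, and 0 in Aldefluor- cells, where it called 0.0179%.

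The increase that passed the test was that of PARP9, a mono-ADP-ribosyltransferase family member that works as a complex with the E3 ubiquitin ligase DTX3L in the interferon response. PARP9 read 4.13, 3.86 and 4.11 in T47D Aldefluor+ cells with ID8, against 3.59, 3.46 and 3.75 with DMSO. In T47D Aldefluor- cells it read 4.16, 4.07 and 4.06 with ID8, against 3.33, 3.66 and 3.19 with DMSO. All 6 ID8 arrays were above all 6 DMSO arrays. Cells were treated before sorting, so the 6 arrays of a side stand for 3 experiments. PARP9 rose by 0.57 ± 0.12 (SE, 6 arrays a side), or 1.48-fold, with an adjusted p of 0.0477 in limma. That call is close to the threshold and was lost when any of the 3 T47D experiments was left out, at adjusted p-values between 0.188 and 0.376. Through the shared estimate of spread it was also lost without SUM159 experiment 2, at 0.0542, without experiment 4, at 0.0940, and without the narrow SUM159 array, at 0.0559. It was lost as well with quantile normalization, at 0.0565, with all probe sets tested, at 0.102, and with each line fitted alone, at 0.0867.

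DTX3L, the partner that shares the promoter match, read 6.09, 5.98 and 6.21 in T47D Aldefluor+ cells with ID8, against 5.43, 5.80 and 5.64 with DMSO. In Aldefluor- cells it read 6.23, 6.18 and 5.91 with ID8, against 5.71, 5.47 and 5.79 with DMSO. Its groups did not overlap either, and its difference of 0.46 ± 0.10 had an adjusted p of 0.0628. PARP9 begins, at its upstream start site, beyond the start of DTX3L, so the annotated genes overlap there, and the labels do not say whether the probe sets separate the strands there.

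The genes for signal transduction and RNA sensing had differences above 0 in T47D, and 0 of them passed the adjusted test. IRF9, the DNA-binding subunit that guides STAT proteins to the ISRE, ranged from 2.34 to 3.09 with ID8, with a median of 2.75, against 1.86 to 2.55 with DMSO, with a median of 2.34. Its difference was 0.48 ± 0.16, with an adjusted p of 0.237. IRF1 and IRF7, further transcription factors of the pathway, differed by 0.36 and 0.06. IFIH1, which encodes the viral RNA sensor MDA5, ranged from 5.90 to 6.28 with ID8, with a median of 6.03, against 5.36 to 5.87 with DMSO, with a median of 5.51. Its arrays did not overlap, and its difference of 0.50 ± 0.15 had an adjusted p of 0.181. DDX60, a helicase linked to RNA sensing, ranged from 2.64 to 2.78 with ID8, against 2.00 to 2.58 with DMSO, also without overlap, with a difference of 0.41 and an adjusted p of 0.251.

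The IFIT proteins bind foreign RNA and block its translation. IFIT5 ranged from 3.51 to 4.23 in T47D with ID8, with a median of 3.84, against 2.97 to 3.35 with DMSO, with a median of 3.19. All ID8 arrays were above all DMSO arrays, and the difference was 0.67 ± 0.16 with an adjusted p of 0.0794. IFIT1 and IFIT3 had means below 2 and differed by 0.81 and 0.52, with adjusted p-values of 0.254 and 0.165, while IFIT2 differed by 0.01. The OAS enzymes make oligoadenylates that activate an RNA-degrading nuclease, and OASL is their relative that acts on RNA sensing. All 4 measured members of that family lay above 0, with OAS2 and OASL both at 0.44, OAS1 at 0.29 and OAS3 at 0.11.

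Among the restriction factors, MX1, a GTPase that traps viral nucleoproteins, ranged from 2.75 to 3.26 in T47D with ID8, with a median of 2.97, against 1.91 to 2.54 with DMSO, with a median of 2.17. Its arrays did not overlap, and its difference of 0.79 ± 0.21 had an adjusted p of 0.123. Its relative MX2 had a mean below 2 and a difference of -0.15. BST2, or tetherin, which holds budding virions at the cell surface, differed by 0.40 ± 0.12, with an adjusted p of 0.163. The membrane proteins IFITM2 and IFITM1, which hinder viral entry, differed by 0.25 and 0.13. With PARP9, DTX3L, IFIH1, DDX60 and IFIT5, MX1 makes 6 of the 40 genes whose 6 ID8 arrays all lay above their 6 DMSO arrays, where 0.871% of all genes did so. The reverse was found for 0 of the 40, where 0.674% of all genes did so.

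The genes of the ISG15 pathway did not share 1 direction in T47D. ISG15, the ubiquitin-like modifier itself, differed by 0.27, and UBE2L6, its conjugating enzyme, by 0.35. HERC5, its ligase in human cells, differed by -0.19, the related HERC6 by -0.15 and USP18, which removes ISG15 and dampens receptor signalling, by -0.27. The lowest adjusted p of these 5 was 0.296. In the group named IFI, the small membrane-associated proteins IFI6 and IFI27 differed by 0.55 and 0.39, with adjusted p-values of 0.144 and 0.184, and IFI44L by -0.11. IFI44L read 1.61, 1.21 and 1.29 in T47D Aldefluor+ cells with ID8, against 1.37, 1.33 and 2.23 with DMSO, and 1.43, 1.61 and 1.76 in Aldefluor- cells with ID8, against 1.77, 1.97 and 0.91 with DMSO. These dim values overlapped between the treatments. The kinase EIF2AK2, which shuts down translation on sensing double-stranded RNA, differed by 0.22. The antigen processing genes PSMB9, an immunoproteasome subunit, and TAP1, a peptide transporter, differed by 0.18 and 0.24.

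The genes with a mean below 2 showed less of the pattern. Of the 25 brighter genes, 23 lay above 0 in T47D, with a median difference of 0.35. Of the 15 dimmer genes, 9 lay above 0, with a median of 0.02. Among the dim ones, the antiviral enzymes RSAD2 and CMPK2 differed by -0.03 and -0.22, and the ubiquitin ligase TRIM22 by -0.26.

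**Figure D2:**
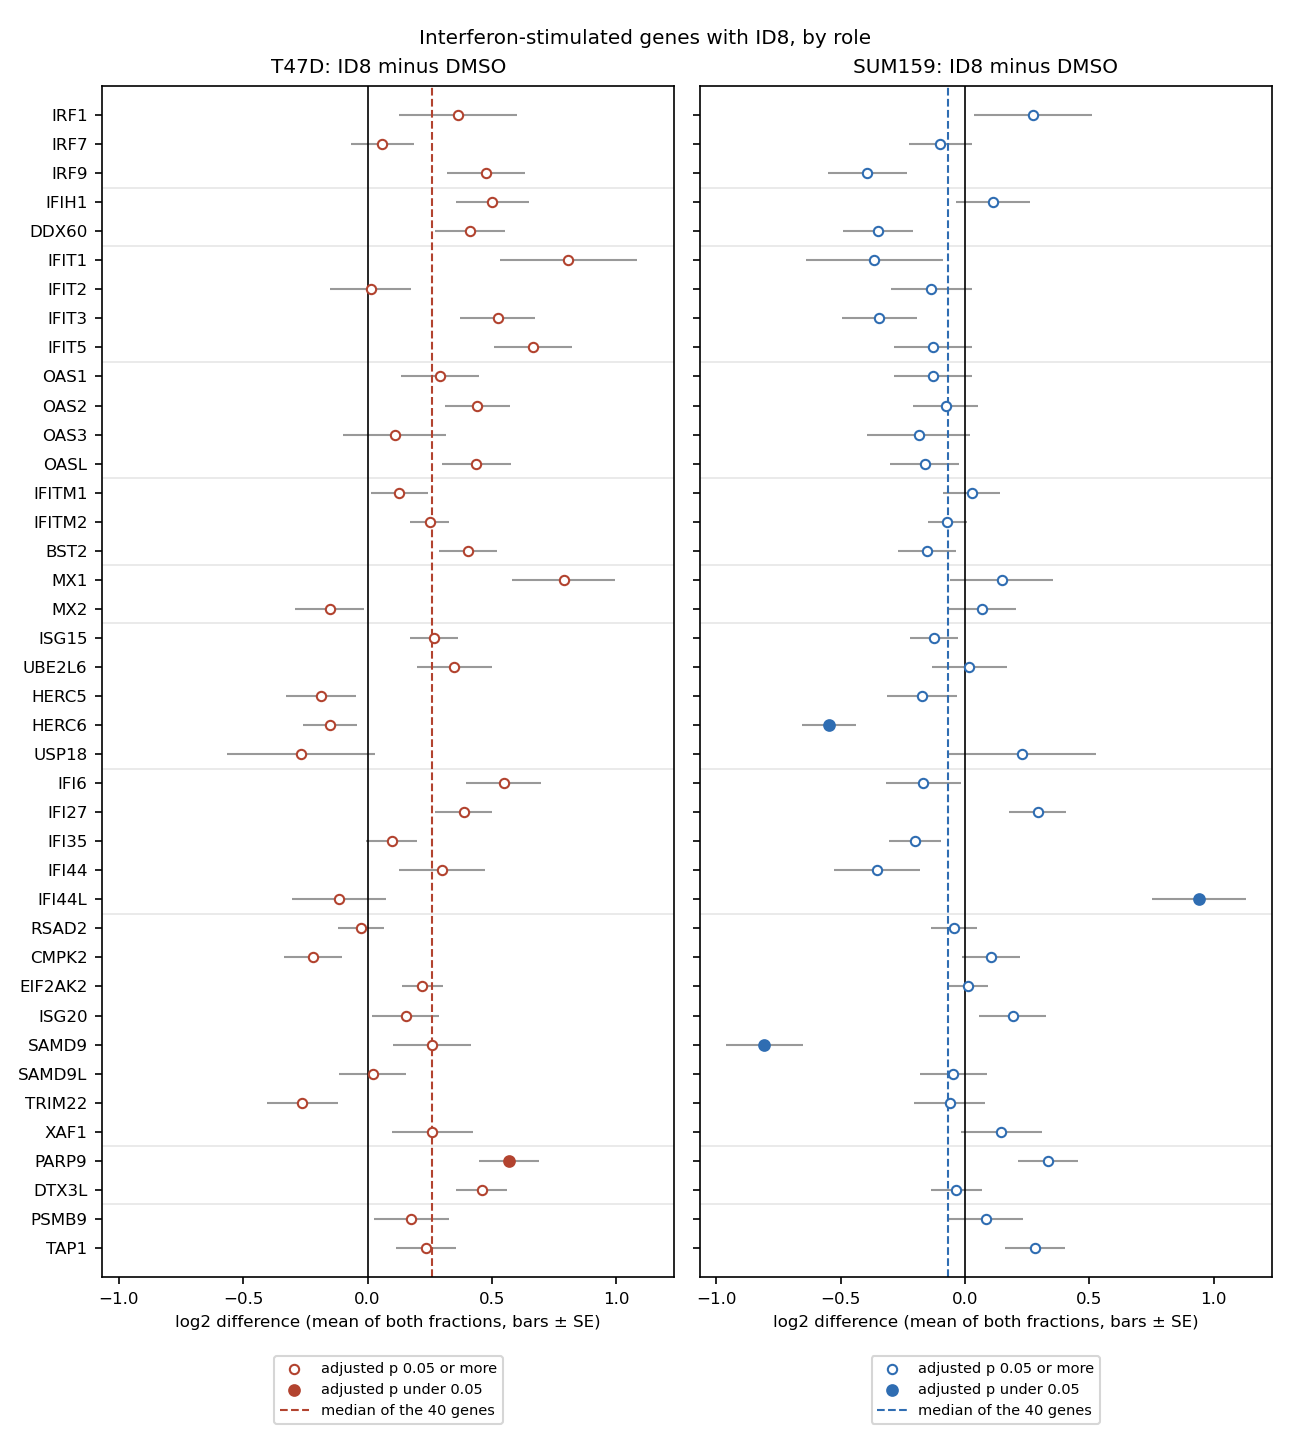
Log2 difference between ID8 and DMSO for each of the 40 interferon-stimulated genes in T47D (left) and SUM159 (right), averaged over both Aldefluor fractions, with genes in order of role. Circles are limma estimates with bars of ± SE, filled where the adjusted p was under 0.05, and the dashed line is the median of the 40 genes. Most circles in T47D lie right of 0 around a median of 0.26, whereas those of SUM159 scatter around -0.07 with HERC6 and SAMD9 on the left and IFI44L on the right.

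In SUM159, the interferon-stimulated genes differed between ID8 and DMSO in both directions. SAMD9 and HERC6 fell, IFI44L rose, and none of the others passed the test. Over both fractions, 16 genes lay above 0 and 24 below, where 52.1% of all genes lay below, and the median difference was -0.07, against -0.01 over all genes. At an unadjusted p under 0.05, 4 genes were higher, IFI27, IFI44L, PARP9 and TAP1, against 5.26% of all genes. At that level 5 were lower, DDX60, HERC6, IFIT3, IRF9 and SAMD9, against 6.06%. The adjusted test called 3 of the 40, or 7.5%, where it called 0.688% of all genes.

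SAMD9 encodes a cytoplasmic protein that restricts poxviruses and slows protein synthesis. It read 3.16, 3.18 and 3.00 in SUM159 Aldefluor+ cells with ID8, against 3.48, 4.02 and 4.12 with DMSO. In SUM159 Aldefluor- cells it read 3.12, 2.96 and 3.21 with ID8, against 4.01, 3.94 and 3.90 with DMSO. All 6 ID8 arrays lay below all 6 DMSO arrays. SAMD9 fell by 0.81 ± 0.16 on the log2 scale (SE, 6 arrays a side from 3 experiments), or 1.75-fold, with an adjusted p of 0.0210. SAMD9L, its neighbour on chromosome 7 and closest relative, had a mean below 2 and differed by -0.05.

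HERC6 belongs to the family of HECT ubiquitin ligases whose member HERC5 attaches ISG15 in human cells, and its own mouse counterpart does so in mice. HERC6 read 3.26, 3.41 and 3.55 in SUM159 Aldefluor+ cells with ID8, against 4.01, 3.88 and 3.68 with DMSO. In Aldefluor- cells it read 3.40, 3.48 and 3.38 with ID8, against 4.07, 3.95 and 4.17 with DMSO. Again all ID8 arrays were below all DMSO arrays. HERC6 fell by 0.55 ± 0.11, or 1.46-fold, with an adjusted p of 0.0242. SAMD9 and HERC6 were the 2 of 40 genes whose SUM159 arrays did not overlap in this direction, where 1.03% of all genes did so. In the other direction 0 of the 40 were separated, where 0.848% of all genes were.

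IFI44L, a feedback regulator of the interferon response, read 2.34, 2.46 and 2.50 in SUM159 Aldefluor+ cells with ID8, against 1.41, 1.63 and 1.13 with DMSO. In Aldefluor- cells it read 1.52, 1.84 and 1.95 with ID8, against 0.97, 0.77 and 1.06 with DMSO. Within each fraction the ID8 arrays were above the DMSO arrays, but the Aldefluor- arrays with ID8 overlapped the Aldefluor+ arrays with DMSO. IFI44L rose by 0.94 ± 0.19, or 1.92-fold, with an adjusted p of 0.0276, at a mean below 2. Its neighbour and relative IFI44 differed by -0.36, with an adjusted p of 0.465.

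Each of these 3 calls in SUM159 was lost when any of that line's 3 experiments was left out. The adjusted p then lay between 0.101 and 0.265 for SAMD9, between 0.124 and 0.293 for HERC6 and between 0.167 and 0.250 for IFI44L. The call on HERC6 was also lost, at 0.0504, without T47D experiment 7 and, at 0.0530, with each line fitted alone. With all probe sets tested all 3 were lost, at 0.0513 for SAMD9, 0.0565 for HERC6 and 0.0639 for IFI44L. Without the narrow array, the adjusted p was 0.0610 for SAMD9, 0.0774 for IFI44L and 0.0200 for HERC6, and the number of genes called was then 1.

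The other genes of SUM159 gave smaller values. All 4 IFIT genes and all 4 OAS genes lay below 0, from -0.37 for IFIT1 to -0.08 for OAS2, and none of these passed the adjusted test, with 1 of them, IFIT3 at -0.34, at an unadjusted p under 0.05. IRF9 ranged from 2.02 to 2.54 with ID8, against 2.25 to 3.14 with DMSO, and its difference of -0.39 had an adjusted p of 0.344. PARP9 read 3.81, 4.37 and 4.02 in SUM159 Aldefluor+ cells with ID8, against 3.79, 3.81 and 3.62 with DMSO. In SUM159 Aldefluor- cells it read 4.05, 3.55 and 3.83 with ID8, against 3.40, 3.43 and 3.58 with DMSO. The treatments thus overlapped for PARP9, and its difference of 0.33 had an adjusted p of 0.277. DTX3L differed by -0.04 over both fractions, as its values lay higher with ID8 in Aldefluor+ cells and lower with ID8 in Aldefluor- cells.

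The mean level of the 40 genes in SUM159 was 3.02, 3.01 and 3.05 with ID8 in Aldefluor+ cells and 3.06, 3.04 and 3.01 with ID8 in Aldefluor- cells. With DMSO it was 3.15, 3.15 and 3.09 in Aldefluor+ cells and 2.97, 3.02 and 3.09 in Aldefluor- cells. The treatments overlapped through the DMSO Aldefluor- arrays. Tested apart, the Aldefluor+ fraction had a median difference of -0.08, with 28 genes below 0, against 51.7% of all genes, and 0 called, where 0.241% of all genes were. The Aldefluor- fraction had a median of 0.04, with 21 genes above 0, against 47.8%, and 0 called, where 0.277% were. At an unadjusted p under 0.05 the Aldefluor+ fraction had 1 gene higher, against 4.88% of all genes, and 6 lower, against 5.43%. The Aldefluor- fraction had 2 higher, against 3.73%, and 4 lower, against 4.3%. When 1 experiment at a time was left out, the median lay between -0.15 and -0.08 in Aldefluor+ cells, and in Aldefluor- cells it turned sign, between -0.04 and 0.08.

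**Figure D3:**
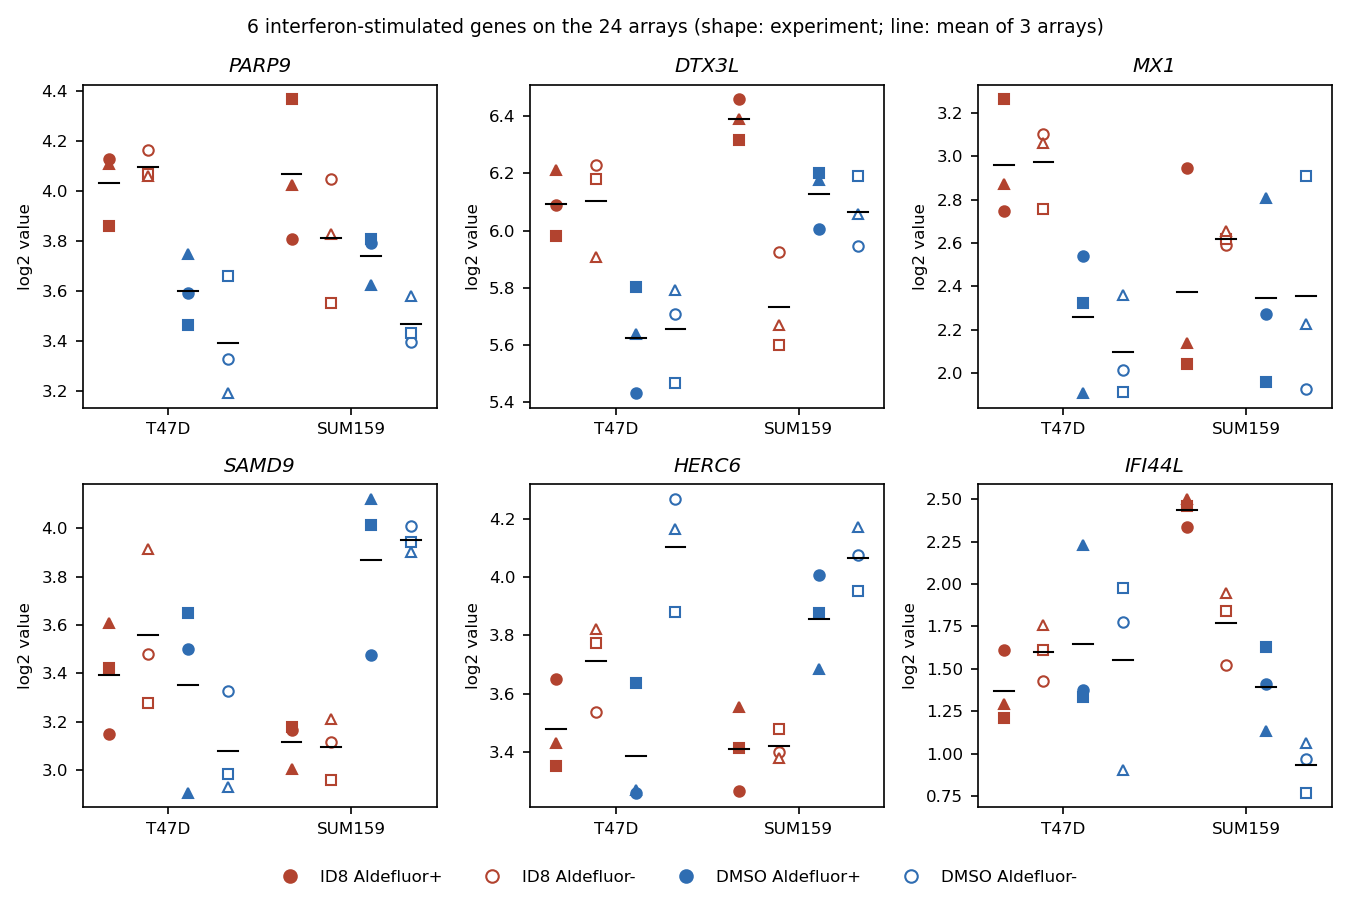
Log2 values of PARP9, DTX3L, MX1, SAMD9, HERC6 and IFI44L on the 24 arrays, with ID8 left of DMSO and Aldefluor+ left of Aldefluor- within each line. Circles, squares and triangles are experiments 5, 6 and 7 in T47D and 2, 3 and 4 in SUM159, and black lines are means of 3 arrays. PARP9, DTX3L and MX1 separate the treatments in T47D, and SAMD9 and HERC6 do so in SUM159, where both are lower with ID8.

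The effect of ID8 was then compared between the lines, as the SUM159 difference minus the T47D difference. This compares changes within lines, since levels between the lines were largely removed by the batch adjustment. Of the 40 genes, 32 had a smaller value in SUM159, 80% against 50.8% of all genes, and the median difference of effects was -0.30. At an unadjusted p under 0.05, 16 genes were lower, against 5.69% of all genes, and 1 was higher, against 5.19%. The adjusted test called 1 of the 40, SAMD9, where it called 0.647% of all genes. In 20 genes the effect lay below 0 in SUM159 and above 0 in T47D, and in 4 the reverse was found. In SUM159, 134000 to 417000 cells per sample had been collected with ID8, against 95000 to 210000 with DMSO. T47D had fewer cells collected with ID8 than with DMSO. The part of this in the difference between lines was not tested.

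For SAMD9 the effect was -0.81 in SUM159 and 0.26 in T47D, so that the difference was -1.07 ± 0.22, with an adjusted p of 0.0355. In T47D SAMD9 had read 3.15, 3.42 and 3.61 with ID8 in Aldefluor+ cells, against 3.50, 3.65 and 2.91 with DMSO. In T47D Aldefluor- cells it had read 3.48, 3.28 and 3.92 with ID8, against 3.33, 2.98 and 2.93 with DMSO, so the treatments overlapped there. The call on the difference was lost when any 1 of the 6 experiments was left out, at adjusted p-values between 0.0648 and 0.203, without the narrow array, at 0.0612, and with all probe sets tested, at 0.0821. Next in order of p came IFIT3, with -0.34 in SUM159 and 0.52 in T47D and an adjusted p of 0.0838 for the difference, and IFI44L, with 0.94 and -0.11 and an adjusted p of 0.0976. The difference for PARP9, which lay above 0 in both lines, did not reach an unadjusted p under 0.05.

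The next question was whether the interferon-stimulated genes differ between Aldefluor+ and Aldefluor- cells. None of the 40 genes was called in any of the 4 such comparisons, nor in the 2 that averaged over treatments. With ID8, Aldefluor+ and Aldefluor- cells of T47D differed by a median of 0.02, with 23 genes above 0, against 48.8% of all genes, and 0.366% of all genes were called. With DMSO the median in T47D was 0.00, with 20 genes above 0, against 50.6%, and 0.152% were called. The fractions of T47D thus split the genes about evenly between higher and lower. In SUM159 with ID8 the median was -0.02, with 17 genes above 0, against 48.9%, and 0.201% were called. In SUM159 with DMSO it was 0.14, with 25 genes above 0, against 49%, and 0.0223% were called. That median lay between 0.05 and 0.14 when 1 experiment at a time was left out. At an unadjusted p under 0.05 these comparisons had 2, 2, 3 and 4 of the 40 genes, where 8.93%, 8.96%, 7.52% and 7.95% of all genes reached it.

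Single genes came near the threshold between the fractions. HERC6 in T47D read 3.65, 3.35 and 3.43 in Aldefluor+ cells with ID8, against 3.54, 3.77 and 3.82 in Aldefluor- cells. With DMSO it read 3.26, 3.63 and 3.27 in Aldefluor+ cells, against 4.27, 3.88 and 4.17 in Aldefluor- cells. Its difference was -0.72 ± 0.15 with DMSO, with an adjusted p of 0.0848, and -0.48 ± 0.11 over both treatments, with an adjusted p of 0.0510, where 0.875% of all genes were called. IFITM2 differed by 0.30 ± 0.08 between the T47D fractions over both treatments, with an adjusted p of 0.106.

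In SUM159 with ID8, DTX3L read 6.46, 6.32 and 6.39 in Aldefluor+ cells, against 5.93, 5.60 and 5.67 in Aldefluor- cells. The difference was 0.66 ± 0.14, with an adjusted p of 0.0925. In SUM159 with DMSO it read 6.00, 6.20 and 6.18 in Aldefluor+ cells, against 5.95, 6.19 and 6.06 in Aldefluor- cells, which overlap. IFI27 read 2.96, 2.68 and 2.58 in SUM159 Aldefluor+ cells with DMSO, against 2.01, 2.26 and 1.92 in Aldefluor- cells, and its difference of 0.68 ± 0.16 had an adjusted p of 0.256. IFIT5 read 3.00, 3.60 and 3.23 in SUM159 Aldefluor+ cells with DMSO, against 4.06, 4.31 and 4.06 in Aldefluor- cells. Its difference of -0.87 ± 0.22 was the largest in size of the 4 comparisons, with an adjusted p of 0.302. Averaged over treatments, 0 of the 40 genes were called in SUM159, where 0.219% of all genes were.

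**Figure D4:**
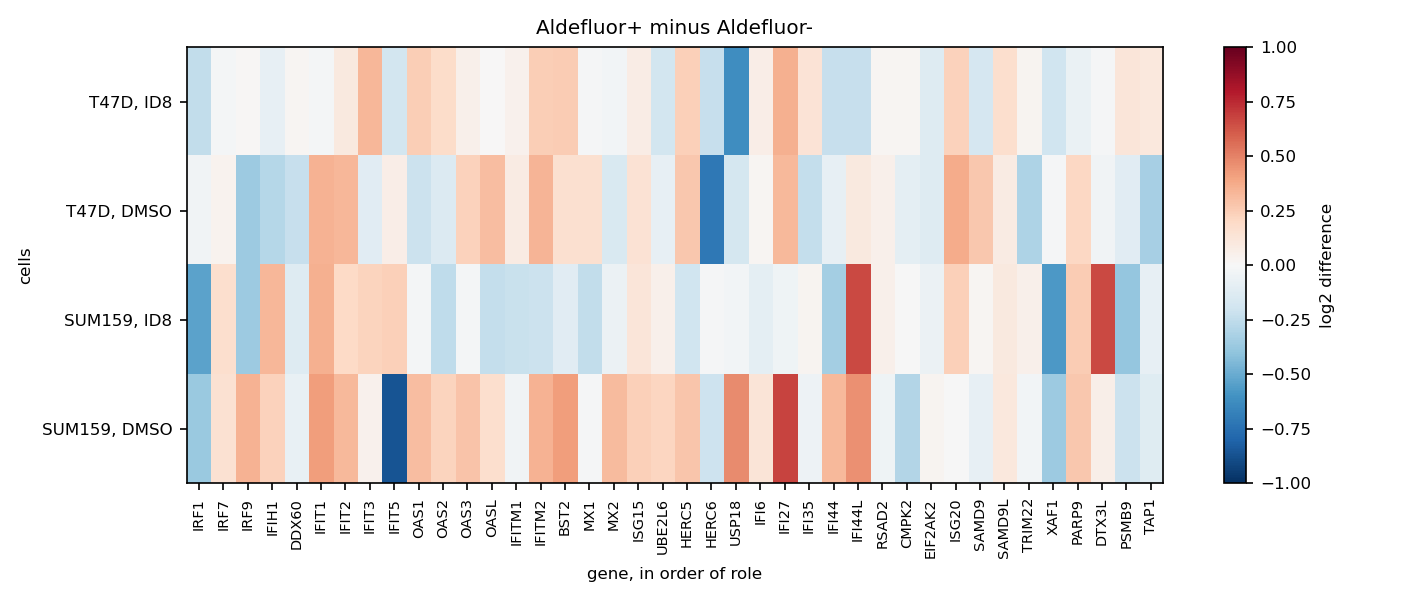
Log2 difference between Aldefluor+ and Aldefluor- cells for each of the 40 interferon-stimulated genes (columns, in order of role) in the 4 combinations of line and treatment (rows). Red is higher in Aldefluor+ cells and blue lower, on a scale that stops at 1 and -1. Colours are mixed within each row, and the strong cells are single genes, such as IFIT5 in SUM159 with DMSO at -0.87, HERC6 in T47D with DMSO at -0.72 and DTX3L in SUM159 with ID8 at 0.66.

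The effect of ID8 was not called as different between the fractions for any of the 40 genes in either line. In SUM159, 6 genes reached an unadjusted p under 0.05, 15% against 7.06% of all genes, and the adjusted test called 0 of the 40 and 0.00447% of all genes. IFIT5 had the widest such difference, 1.10 ± 0.31, with values of 0.42 in Aldefluor+ and -0.68 in Aldefluor- cells and an adjusted p of 0.539. In T47D, 1 gene, HERC6, reached that level, against 5.93% of all genes, and the adjusted test called 0 of the 40 and 0% of all genes. The difference between the lines in their Aldefluor difference was called for 0 of the 40, where 0.478% of all genes were called, and 4 genes reached an unadjusted p under 0.05, against 9.38% of all genes.

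Other genes of the pathway were read from lists of ligands, receptors, sensors, negative regulators and further target genes. Of all genes, 0.505% were called for ID8 in T47D, 0.688% for ID8 in SUM159 and at most 0.875% in any comparison. Counts of 0 in lists this short lie near those shares. All 6 measured interferon ligand genes had means below 2, and 0 were called in any comparison. IFNG, the gene of interferon gamma, had the largest difference among them, -0.41 with ID8 in T47D, with an adjusted p of 0.105. The ligand genes therefore gave low signal in all groups. Of the 9 receptors and Janus kinases, 0 were called, with medians of 0.01 in T47D and -0.06 in SUM159. The 12 genes of nucleic acid sensing had medians of 0.00 and -0.03, and 0 were called. Of 14 measured genes for antigen presentation, which include the HLA class I genes, 9 lay above 0 in T47D, where 48.4% of all genes did, and 10 in SUM159, where 47.9% did, with medians of 0.09 and 0.11, and 0 were called. The 10 target genes more typical of interferon gamma, such as GBP1 and CXCL10, and 18 other interferon-induced genes had medians of 0.08 and 0.07 in T47D and of -0.03 and 0.04 in SUM159, with 0 called. LAMP3, a lysosomal membrane protein, came closest of the latter in T47D, at 0.63 ± 0.14 with an adjusted p of 0.0652.

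Among the 5 negative regulators, SOCS1 rose with ID8 in SUM159. It encodes a protein that inhibits Janus kinases and is itself induced by interferon. SOCS1 read 3.46, 3.40 and 2.91 in SUM159 Aldefluor+ cells with ID8, against 2.29, 2.73 and 2.35 with DMSO. In Aldefluor- cells it read 3.81, 3.49 and 3.64 with ID8, against 2.47, 2.16 and 2.58 with DMSO. All 6 ID8 arrays lay above all 6 DMSO arrays, where 0.848% of all genes did so. SOCS1 rose by 1.02 ± 0.16 over both fractions, or 2.03-fold, with an adjusted p of 0.00396, and by 1.24 ± 0.22 in Aldefluor- cells, or 2.36-fold, with an adjusted p of 0.0263. In these comparisons 0.688% and 0.277% of all genes were called. In T47D SOCS1 ranged from 2.70 to 3.10 with ID8, against 2.01 to 3.06 with DMSO, and its difference of 0.16 had an adjusted p of 0.779. The difference between the lines, 0.86 ± 0.22, had an adjusted p of 0.104. The call over both fractions was lost, at 0.123, when experiment 2 was left out. The call in Aldefluor- cells was lost without any 1 of the 3 SUM159 experiments, at 0.187 to 0.274, without T47D experiment 5, at 0.0770, with all probe sets tested, at 0.0640, and with each line fitted alone, at 0.0578.

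The genes were last set beside their promoters, for the 32 that had both a value and a window. In T47D, 18 of the 20 genes with an ISRE-type match lay above 0 with ID8, with a median of 0.40, and 13 of them were higher at an unadjusted p under 0.05. Of the 12 genes without a match, 9 lay above 0, with a median of 0.21, and 2 were higher at that level. Of all genes tested, 48.4% lay above 0 and 5.41% were higher at that level. In SUM159 the genes with a match had a median of -0.13, with 8 above 0, and those without had a median of -0.01, with 6 above 0, where 47.9% of all genes lay above 0. With every window searched, the T47D medians were 0.34 for 22 genes with a match and 0.22 for 10 without. Both called genes with a single match in the window used, PARP9 in T47D and SAMD9 in SUM159, carry the 10 letters shown in capitals above, read on opposite strands. The calls on them came from different lines. PARP9 lay above 0 with ID8 in both lines, and SAMD9 lay above 0 in T47D and below 0 in SUM159. Genes without a match more often had a mean below 2, and genes that dim showed less of the T47D pattern. The groups with and without a match were not made alike in signal. These counts describe the listed genes, and no test was made of them.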

How the data were processed

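The authors deposited log2 signals made by robust multiarray averaging (RMA) and adjusted for experiment and processing batch with ComBat, per the series' design text and the submitters' processing notes, which also name limma. Not given in the sources used here are tool versions, the batches passed to ComBat and any protected covariates. Precision is limited by the number of arrays. Over genes, the SD of an experiment's mean about its line's mean was at most 0.0226, and that of the difference between lines was 0.118, so levels of the interferon-stimulated genes were not compared between lines, and the line markers were read only for which line was higher.

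Of 53617 probe sets, 23871 had 1 gene symbol in the platform table, 1842 several and 27904 none there. Symbols of 22569 were updated by gene number to RefSeq (GRCh38.p14). For 632 genes with several probe sets the brightest was kept, which left 22395 genes. The main test was limma 3.58.1 in R 4.3.3 (lmFit and eBayes) with the 24 arrays in 1 model of 8 group means and a block for experiment within line. P-values were adjusted by Benjamini-Hochberg over all genes of each of 16 comparisons, with calls at an adjusted p under 0.05. The design text describes 3 separate experiments a line. With the block, p-values rest on how differences between groups vary over experiments. Each gene has 1 estimate of that spread, shared by both lines, with 12 residual degrees of freedom. Comparisons with a group in common are not independent. Cells were treated before sorting, so the 2 fractions of a treatment in an experiment are not separate treatments. The model has no term for this, so comparisons averaged over fractions count 6 arrays a side from 3 experiments. All calls on the 40 genes came from such averaged comparisons. ± SE values come from this model.

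The experiment numbers pair the arrays because the labels state them. The 36 pairs of arrays from 1 experiment had deviations from their group means that correlated at -0.408 to -0.266, and arrays of other experiments and groups of a line at 0.0986 to 0.244, as values centred by experiment give. The script was tested on simulated data. Alternatives were no block, quantile normalization, only genes with a mean of at least 2, all probe sets, the mean over a gene's probe sets, each line alone, trended robust eBayes, leaving out the narrowest array or each experiment, and, added after seeing the data, every promoter window of a gene.

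The members, roles and pathway lists were chosen with earlier results of these data known, so no list was tested as a set and no p was adjusted over a list alone. Every array's value is given for members called in some comparison, other members are given by range or difference, and of the pathway lists only called genes and those with the largest differences are named. DTX3L, IFI27, IFIT5 and SOCS1 were given by array after their values were seen. Motifs were searched with Python 3.11.15 in 1 window a gene, the one with the lowest coordinate where several were given.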

Additional observations from a re-analysis of the deposited data

Results flagged for a closer look

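The effect of ID8 on SAMD9 was called as different between the cell lines. The log2 difference between ID8 and DMSO was -0.81 in SUM159 and 0.26 in T47D, averaged over both Aldefluor fractions. The test of the difference itself in limma gave -1.07 ± 0.22 (SE, 12 arrays from 3 experiments a line), with an adjusted p of 0.0355 over 22395 genes. That call was lost when any single experiment was left out, at adjusted p-values between 0.0648 and 0.203 in limma. It was also lost without the narrow array and with all probe sets tested. All 6 ID8 arrays were below all 6 DMSO arrays in SUM159, while the arrays overlapped in T47D. The lines were processed as separate experiments, so the line and its experiments cannot be told apart.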

How the results depend on the processing

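Under the alternatives run, no called difference changed sign, while counts of called genes among the 40 moved, mostly at small numbers. Without the replicate block, which counts the degrees of freedom that the batch adjustment used, more of all 22395 genes were called as well. The count was 11 for ID8 in T47D, where 562 of all genes were called, against 113 with the block. It was 9 for the difference between lines, where 648 were called, and 3 for ID8 in SUM159 Aldefluor- cells, where 225 were. It was 2 for ID8 in T47D Aldefluor+ cells and for the T47D fractions over both treatments, where 530 and 700 were. In simulated data for ID8 in T47D, 22.2% of the genes called were false without the block, against 4.18% with it. The simulation added a shift per experiment and removed most of it, as a batch adjustment does. Its noise was independent between arrays, so it left out what fractions of the same treated cells share. It therefore does not give the error rate of the averaged comparisons in the real data. Among the 40 genes, 1 was called without the block for ID8 in SUM159 Aldefluor+ cells, where 397 of all genes were. The count was also 1 for the SUM159 fractions with ID8, with DMSO and over both, where 208, 88 and 250 were called. For the T47D fractions with DMSO it was 1, where 242 were called. With only genes of a mean of at least 2, the counts were 3 for ID8 in T47D and 2 for the T47D fractions over both treatments. They were 1 for the T47D fractions with DMSO and 1 for the SUM159 fractions with ID8. In that order, 207, 321, 70 and 61 of all genes kept were called. The median for ID8 in T47D Aldefluor- cells was then 0.36. With trended robust eBayes the counts were 3 for ID8 in T47D and 1 each for the T47D fractions over both treatments and the SUM159 fractions with ID8. In that order, 226, 323 and 55 of all genes were called. ID8 in T47D had a count of 0 with quantile normalization, with all probe sets, with each line fitted alone and without the narrow array. The T47D fractions over both treatments had a count of 1 with quantile normalization and without that array, where 225 and 209 of all genes were called. ID8 in SUM159 had 1 without it and 0 with all probe sets, and the difference between lines had 0 with all probe sets. Leaving out 1 experiment at a time gave counts of 0 to 3 for ID8 in SUM159, 0 to 1 for ID8 in T47D, for ID8 in SUM159 Aldefluor+ cells and for the difference between lines. Over these runs the median difference of the 40 genes lay between -0.103 and -0.0535 for ID8 in SUM159 and between 0.24 and 0.28 for ID8 in T47D Aldefluor- cells. It lay between -0.00812 and 0.0510 for the T47D fractions with ID8, and between -0.0356 and 0.0465 for the difference of the ID8 effect between T47D fractions. For ID8 in T47D the median stayed between 0.20 and 0.29. The line difference could not be computed with each line fitted alone. Dim signal limits the 15 genes with a mean below 2. The cause of these shifts was not tested.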
